A study of Canis lupus familiaris with 3 samples.

Results

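The ID genes encode inhibitors of E proteins, and their transcripts were compared between E47-carrying and control MDCK cells. E proteins such as E47, a product of the gene TCF3, are basic helix-loop-helix transcription factors: the helix-loop-helix joins 2 partners into a dimer, and the basic stretch binds DNA at E-box sites. ID proteins have the helix-loop-helix but lack the basic stretch, so a dimer of an ID protein with an E protein does not bind DNA. In many cell types the ID genes are induced by bone morphogenetic protein (BMP) signals and are expressed in growing, undifferentiated cells. All 4 members, ID1, ID2, ID3 and ID4, were found by their symbol in the array annotation, among 6043 gene symbols in all, and the dog gene table holds all 4 symbols. They are covered by 26 spots of 9 human cDNA clones.

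MDCK is an epithelial line from dog kidney, and the study addresses how E47 bears on E-cadherin and the epithelial to mesenchymal transition. Each of 3 two-colour arrays compared MDCK transfectants named for E47 with MDCK-CMV control cells, both grown in the same medium with fetal bovine serum. The first extraction (cells labelled MDCK-E47_1) was put on 1 array with its E47 RNA in Cy5, and the second (MDCK-E47_2) on 2 arrays as a dye swap, with E47 in Cy3 and in Cy5. The sample labels name MDCK-CMV as the control on all 3 arrays, whereas the design text writes MDCK for the control of the Cy5 arrays and CMV for that of the Cy3 array. The labels do not say whether the extractions came from separate cultures or clones, nor which promoter drove E47, so p-values may measure technical spread only. The dye swap was averaged, which leaves n = 2 extractions.

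Values are log2 ratios of E47 over control. Channel order and the series title make that direction likely, but it is not stated, and base 2 is also an assumption: with natural logarithms every fold below would be larger. The 3 arrays gave values for 25537, 25282 and 24771 of 27648 spots, and 5508 named genes had a spot with a value on all 3. Over all spots the arrays correlated positively (r from 0.58 to 0.76), so none was turned. Of 8 epithelial markers listed, 5 were tested, CDH1, EPCAM, KRT8, KRT19 and DSP, and all 5 fell, from −3.59 to −0.99. Of 7 mesenchymal markers listed, 4 were tested: FN1, SPARC and COL1A2 rose and CDH2 was at 0.02. Of 2 smooth muscle markers listed only ACTA2 was tested, at −0.11. Among all named genes 3.85% were called lower and 5.34% higher, at an adjusted p under 0.05 in limma. The 2 clones of COL1A2 had opposite signs, and its log2 ratio was 0.26 with an adjusted p of 0.160 when clones were weighted equally. KRT8 and COL1A2 lost their calls when the Cy5 array of extraction 2 was left out, at adjusted p-values of 0.0850 and 0.0896, and COL1A2 also with missing spots kept, at 0.106. The part of this shift in the values of the ID genes was not tested. Because the files hold ratios and not levels, whether a marker or an ID gene is expressed at all cannot be read from them. More cells expressing a gene and more RNA per cell cannot be told apart.

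All 4 ID genes were higher in E47 cells, by between 2.11-fold and 2.43-fold. Each passed in limma (threshold 0.05 on the adjusted p) and lay above 0 on all 3 arrays. In the same test 9.19% of named genes passed in either direction, 5.34% as higher and 3.85% as lower, and 30.6% of named genes were above 0 on all 3 arrays. The median log2 ratio of the ID genes was 1.16, against −0.02 over all named genes tested. At an adjusted p under 0.01 no ID gene and none of the 5508 named genes passed in limma; at an unadjusted p under 0.05 all 4 ID genes and 1963 named genes (35.6%) did. The calls did not all survive each alternative: without the Cy5 array of extraction 2 only ID1 passed, with an adjusted p of 0.0439, and ID2, ID3 and ID4 had 0.0681, 0.0501 and 0.0769, at nearly the same log2 ratios. Without that array 1.98% of named genes passed. All 4 ID genes passed under 9 other alternatives, in which the share of named genes that passed was 16.7% from the Cy5 arrays alone, 18.3% with the 3 arrays as independent samples, 13.5% with the dye as a covariate, 8.73% with median centring, 7.93% with scaled arrays, 9.08% with the median over spots, 9.22% with the mean over clones, 9.35% with robust eBayes and 21.3% when only named genes were tested.

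ID1, the member known as a BMP target in endothelial and epithelial cells, had log2 ratios of 1.21 in extraction 1 and 1.39 and 1.32 on the Cy3 and Cy5 arrays of extraction 2. The array values lie close together, with extraction 1 the lowest. The mean was 1.28 ± 0.09 (moderated SE, n = 2 extractions; 95% interval 1.02 to 1.54), or 2.43-fold, with an adjusted p of 0.0201 in limma. Here and below the SE is moderated towards the spread of all features and leaves out the spread between spots and between dyes, as well as that of the control. This value rests on a single clone, AA457158, whose adjacent spots gave 1.22 and 1.21 in extraction 1.

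The other ID1 clone, BE275812, went against it. In extraction 1 its 2 spots were at −3.57 and −3.05. In extraction 2 one of them was at 0.92 on the Cy3 array, and the remaining spot values were missing. The sign of this clone therefore differed between the arrays that measured it. It was left out of the value above because no spot of it had a value on every array. With spots missing on an array kept, the mean of ID1 in extraction 1 became −1.05, against 1.23 and 1.32 on the arrays of extraction 2. The log2 ratio of ID1 was then 0.11 ± 1.64 (SD, n = 2 extractions), with an adjusted p of 0.914, so the rise of ID1 is seen by 1 of its 2 clones only. In that fit 6.26% of named genes passed. ID4 also lost its call there, at an adjusted p of 0.0548, although its spots and its log2 ratio of 1.23 were the same, while ID2 and ID3 passed at 0.0470 and 0.0299.

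**Figure D1:**
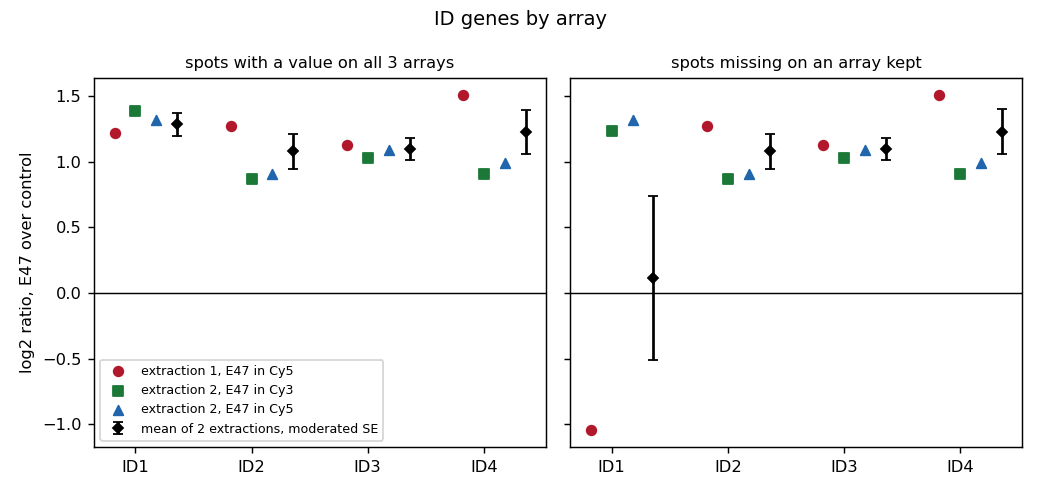
Log2 ratio of each ID gene on each array (coloured points), with the mean of 2 extractions and its moderated SE (black). On the left only spots with a value on all 3 arrays are used and all values lie above 0; on the right spots missing on an array are kept, which moves ID1 in extraction 1 to −1.05 and leaves ID2, ID3 and ID4 where they were.

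ID4, whose role is known best from the nervous system and the mammary gland, had log2 ratios of 1.51 in extraction 1 and 0.91 and 0.99 in extraction 2 with E47 in Cy3 and Cy5. Extraction 1 stands above both arrays of extraction 2. The mean was 1.23 ± 0.17 (moderated SE, n = 2; 95% interval 0.75 to 1.71), or 2.34-fold, with an adjusted p of 0.0405 in limma. Among the 4 genes it had the widest spread between extractions before scaling of the arrays, with an SD of 0.39. With scaled arrays its moderated SE was 0.09, and ID1 had the largest of the 4, at 0.17.

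ID3, another BMP-responsive member, was the most even before scaling of the arrays. It was at 1.13 in extraction 1 and 1.03 and 1.09 in extraction 2 with E47 in Cy3 and Cy5. No array stands apart from the other two. Its mean was 1.09 ± 0.09 (moderated SE, n = 2; 95% interval 0.85 to 1.34), or 2.13-fold, with an adjusted p of 0.0203 in limma. With scaled arrays its moderated SE was 0.11, above those of ID2 and ID4, at 0.08 and 0.09.

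ID2, which is also known to bind the retinoblastoma protein, had 1.27 in extraction 1 and 0.87 and 0.90 in extraction 2 with E47 in Cy3 and Cy5. As for ID4, extraction 1 is the highest. The mean was 1.08 ± 0.13 (moderated SE, n = 2; 95% interval 0.70 to 1.45), or 2.11-fold, with an adjusted p of 0.0341 in limma. ID1 and ID3 reached a log2 ratio of 1 on each array, which 1.36% of named genes did in that direction; ID2 and ID4 did not on the arrays of extraction 2.

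The order ID1, ID4, ID3, ID2 is not resolved by these arrays. ID1 exceeded ID4 by 0.06 ± 0.49 (SD, n = 2), with opposite signs in the 2 extractions. The difference of ID4 over ID3 was 0.13 ± 0.34 and that of ID3 over ID2 0.02 ± 0.22, and both also changed sign between extractions. Among the other 3 of 6 pairs, ID1 was above ID3 on each array, by 0.08 to 0.36, and ID4 above ID2, by 0.04 to 0.23, while ID1 minus ID2 changed sign, at −0.06 in extraction 1 and 0.47 in extraction 2. With 2 extractions these differences were not tested.

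Clones of the same ID gene differed more than the genes did. In a fit with each clone as its own feature, all 8 ID clones with complete spots passed as higher, with adjusted p-values from 0.0172 to 0.0411 in limma, against 6.21% of 6731 clones of named genes called higher and 10.8% called in either direction. For ID2 the clone H89935 was at 1.83 ± 0.23 (moderated SE, n = 2), H82706 at 0.91 ± 0.12 and AA482267 at 0.67 ± 0.09. On the single arrays H89935 had 2.23, 1.54 and 1.31, in the order extraction 1, Cy3 and Cy5 of extraction 2, which is kept below. The clone AA482267 had 0.73, 0.48 and 0.75. The arrays of these 2 clones do not overlap, so the 2.11-fold mean of ID2 lies between a 3.55-fold and a 1.59-fold clone.

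For ID3, BE277021 was at 1.48 ± 0.09 (moderated SE, n = 2), with arrays at 1.42, 1.36 and 1.74. The other ID3 clone, AA482119, was at 0.90 ± 0.10, with arrays at 0.98, 0.87 and 0.76. Here too every array of the one clone was above every array of the other. How often the clones of other genes separate in this way was not counted. In the clone fit those of EPCAM were also apart, at −1.41 and −3.66, and those of TCF4, at 2.83 and 0.49. The clones of ATF3 lay close together, at −0.91 and −0.98. For ID4, AA464856 was at 1.47 ± 0.21, with arrays at 1.85, 1.21 and 1.00, and AA454080 at 0.98 ± 0.13, with 1.17, 0.61 and 0.98. The ID4 clones overlap across arrays, but on each array AA464856 was the higher as the mean of its 2 printed positions. At the second of these alone it had 1.38, 0.53 and 0.33, below AA454080 on both arrays of extraction 2. Human clones were hybridised with dog RNA, and the ID genes are related in sequence, so how far each clone binds only its own dog transcript is not known.

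**Figure D2:**
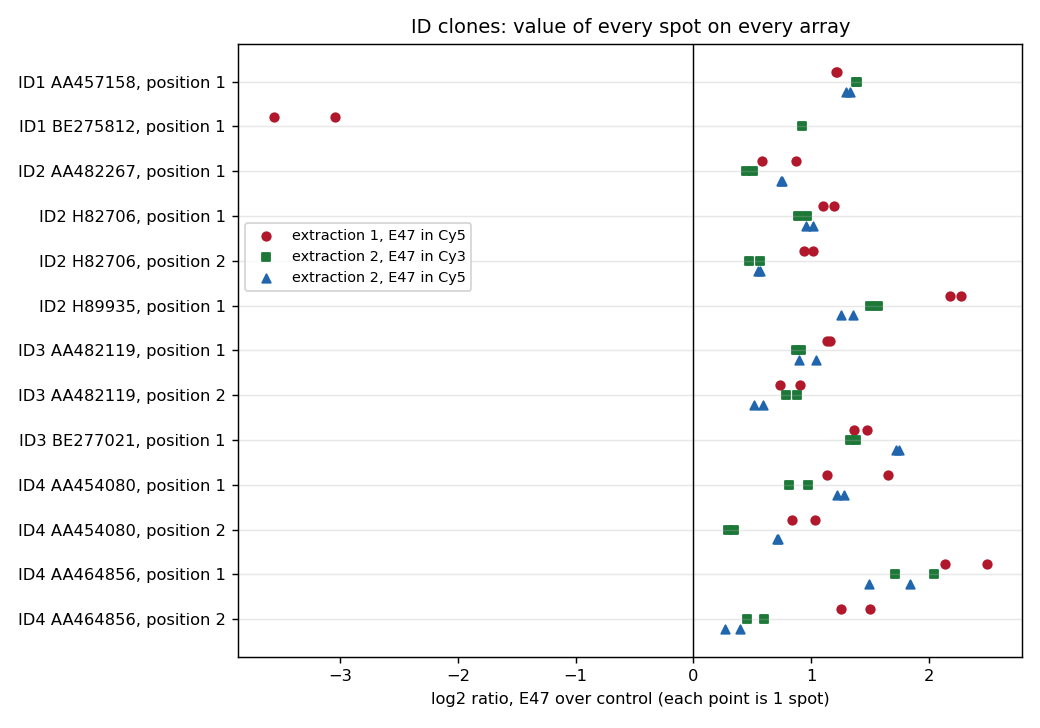
Log2 ratio of every ID spot on every array, by clone and by position on the array; each row holds the adjacent spots of 1 clone. The 24 complete spots lie between 0.27 and 2.49, and only the ID1 clone BE275812 has values below 0, at −3.57 and −3.05 in extraction 1.

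Each clone was spotted as an adjacent pair, and 4 of the ID clones were printed at 2 positions. All 12 complete positions were above 0 on all 3 arrays, ranging from 0.32 to 2.31, and 4 of the 12 reached a log2 ratio of 1 on each array. Neither count was made over all printed positions, so their share there is not known. Adjacent ID spots differed by a median of 0.14, 0.07 and 0.06 on the 3 arrays, where all adjacent pairs of 1 clone had medians of 0.05, 0.03 and 0.05. The distances between positions of an ID clone were larger than these medians. The ID4 clone AA464856 had 2.31, 1.88 and 1.67 at its first position and 1.38, 0.53 and 0.33 at its second. The means over extractions, 2.04 and 0.90, are 1.14 apart. Of 794 clones printed at 2 positions, with ratios of any size, 98.4% differed by less. AA454080, the other ID4 clone, gave 1.23 and 0.73, the ID2 clone H82706 1.05 and 0.76, and the ID3 clone AA482119 1.04 and 0.76.

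The first position was the higher in 4 of 4 ID clones and on each array. Among 147 clones with a mean of at least 0.5 in size, the first position had the larger size in 71, or 48.3%. It did so on all 3 arrays in 32, or 21.8%. Where the positions of the ID clones lie on the arrays was not examined, and the cause was not tested. Across all 794 clones the median distance between positions was 0.13, and the ID clones, at 0.28, 0.29, 0.51 and 1.14, lie above it. The 794 clones had smaller ratios, with a median size of 0.20 at either position. For the ID clones it was 1.14 at the first and 0.76 at the second. Distances were not compared among clones with ratios of like size.

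**Figure D3:**
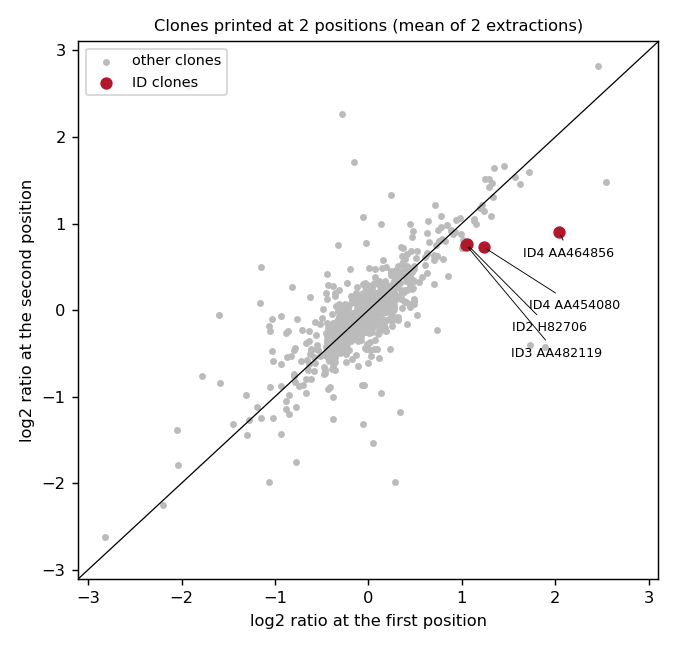
Log2 ratio at the second against the first position, mean of 2 extractions, for 794 clones printed at 2 positions; the line marks equal values and the ID clones are red. The 4 ID clones lie below the line, with AA464856 at 2.04 and 0.90, while the other clones scatter on both sides.

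Extraction 1 exceeded the mean of extraction 2 at 10 of the 12 complete ID positions, and exceeded both of its arrays at 8. The exceptions were the ID1 clone AA457158, lower by 0.14, and the ID3 clone BE277021, lower by 0.13. Extraction 1 was hybridised only with E47 in Cy5, so its dye and its RNA cannot be told apart. Its array also had the widest values over all spots, with an SD of 0.62. The Cy3 and Cy5 arrays of extraction 2 had SDs of 0.43 and 0.54. What part this width has in the counts of ID positions was not tested, and the same counts over all positions were not made. In the dye swap of extraction 2 the ID positions were split, with Cy5 above Cy3 at 7 and below it at 5. The design text writes different controls for these 2 arrays. If the controls differed, dye and control cannot be told apart here. At the level of genes, Cy5 minus Cy3 was −0.07 for ID1, 0.04 for ID2, 0.06 for ID3 and 0.08 for ID4, against a median size of 0.17 over all named genes. For ID2, ID3 and ID4 these values average clones of opposite sign: the ID4 clone AA454080 had 0.36 and 0.39 at its positions and AA464856 −0.21 and −0.20, and for ID3 the positions ran from −0.29 to 0.38. Over the 12 positions the differences ran from −0.29 to 0.39, and 8 of the 12 were above 0.17 in size. That median is of genes averaged over their spots, and single positions can differ more. The median over all single positions was not computed. With the dye as a covariate over the 3 arrays, the log2 ratios were 1.33, 0.98, 1.07 and 1.08 for ID1 to ID4, and all 4 passed. That fit counts the 2 arrays of extraction 2 as independent samples. Its dye term also holds part of the difference between extractions.

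**Figure D4:**
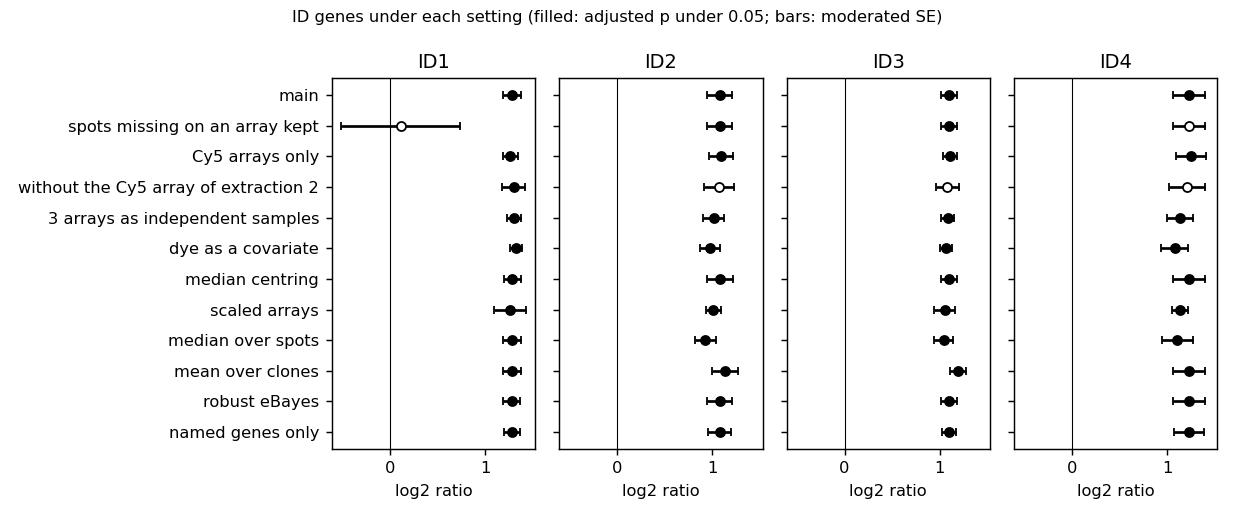
Log2 ratio and moderated SE of each ID gene under the main and 11 other settings; filled points have an adjusted p under 0.05 and open points do not. All values lie above 0, and the open points are ID1 and ID4 with missing spots kept and ID2, ID3 and ID4 without the Cy5 array of extraction 2.

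Genes with array values nearest to those of an ID gene were found by Euclidean distance in log2 units over the 3 arrays. For ID1 these were MAP1B, a microtubule-associated protein, TUBA8, an alpha-tubulin, and PSMA2, a proteasome subunit, at distances of 0.10, 0.13 and 0.14. ID2 lay nearest to RARB, a retinoic acid receptor, at 0.07, to ACVR1, a BMP receptor, and to TOR1AIP1, a nuclear membrane protein. ID3 was nearest to SMAD5, a transducer of BMP signals, at 0.11, to SNRPE, a spliceosomal protein, and to KPNA3, an importin. ID4 was nearest to MSN, which encodes the membrane-cytoskeleton linker moesin, at 0.12, to CHSY1, a chondroitin synthase, and to OXCT1, an enzyme of ketone body use. All of these genes were called higher, which their choice for values near those of called genes makes likely. Such nearness over 3 arrays of 1 comparison describes similar values only.

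Related genes moved in both directions or not at all. Of 129 genes in 10 lists of partners, upstream signals and targets, 65 were tested, of which 7 rose and 2 fell, 13.8% against 9.19% of all named genes. Their median was 0.03.

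Among the E proteins, 1 of 3 rose and none fell. TCF4, the E protein also called E2-2, was at 1.86, 1.41 and 1.51 on the 3 arrays, with a mean of 1.66 and an adjusted p of 0.0211 in limma. Its clones were apart: in the clone fit AA284174 was at 2.83 and passed, and AA669136 at 0.49 did not, with an adjusted p of 0.0706 in limma. TCF3, which encodes E47 itself, was at −0.29 with an adjusted p of 0.118, and TCF12 at 0.08. The sources used here do not say whether the TCF3 clones overlap the transfected sequence, and this value therefore does not check the transfection.

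Of the tissue-specific partners of E proteins 1 of 3 tested rose. This was TWIST1, a factor of mesenchymal cells, at 1.24 with an adjusted p of 0.0283. Of 4 repressors of the HES, HEY and BHLHE40 group 1 rose, BHLHE40, at 0.74 with an adjusted p of 0.0370. The calls of TWIST1 and BHLHE40 ended without the Cy5 array of extraction 2, at adjusted p-values of 0.0821 and 0.0717.

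In the BMP and TGF-beta pathway, the ligand BMP4 rose by 0.57, 1 of 14 ligands tested, with arrays at 0.53, 0.72 and 0.51 and an adjusted p of 0.0478. Of 8 receptors, ACVR1, which passes BMP signals to SMAD proteins, rose to 1.00 with an adjusted p of 0.0307, and ENG, a co-receptor, fell by 0.94 on the log2 scale with 0.0247. Of 5 SMAD transducers 2 rose. SMAD5, which carries BMP signals, was at 1.19, 1.06 and 1.17 on the 3 arrays, with a mean of 1.15 and an adjusted p of 0.0201, close to ID3 on each array. SMAD2, which carries TGF-beta and activin signals, was at 0.71 with 0.0461. SMAD1, the other BMP transducer measured, was at −0.02 (adjusted p 0.900 in limma). Leaving out the Cy5 array of extraction 2 ended the calls of BMP4, ACVR1, ENG and SMAD2, at adjusted p-values of 0.114, 0.0642, 0.0688 and 0.0922. BMP4 also lost its call with scaled arrays and with missing spots kept, at 0.0675 and 0.0613. SMAD5 and TCF4 passed under each of the 11 alternatives fitted.

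None of 5 inhibitors of BMP signalling passed in limma. Of these SMAD7 was at 0.48 with an adjusted p of 0.0609, and SMAD6 at −0.46 with 0.245, its Cy3 array at 0.67 against −0.88 and −0.77 on the Cy5 arrays. Among 11 regulators of ID transcription ATF3, a stress-induced factor known to repress ID1, fell by 0.93 on the log2 scale, with arrays at −0.94, −0.91 and −0.95 and an adjusted p of 0.0241, and no other passed. ATF3 lost its call without the Cy5 array of extraction 2, at 0.0572.

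None of 8 other proteins that bind or act on ID proteins passed, the farthest being PAX8, a transcription factor of kidney epithelia, at −0.22, and CDC20, an activator of the anaphase-promoting complex, at −0.18, with adjusted p-values of 0.177 and 0.306. The 4 CDK inhibitors tested, cell cycle brakes whose genes E proteins can activate and ID proteins can hold down, did not pass either. CDKN1C was at −1.10 with an adjusted p of 0.0557, from 1 spot with arrays at −1.41, −0.83 and −0.75, and CDKN1B at −0.45 with 0.0699. CDKN1A and CDKN2B were at −0.18 and 0.03.

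**Figure D5:**
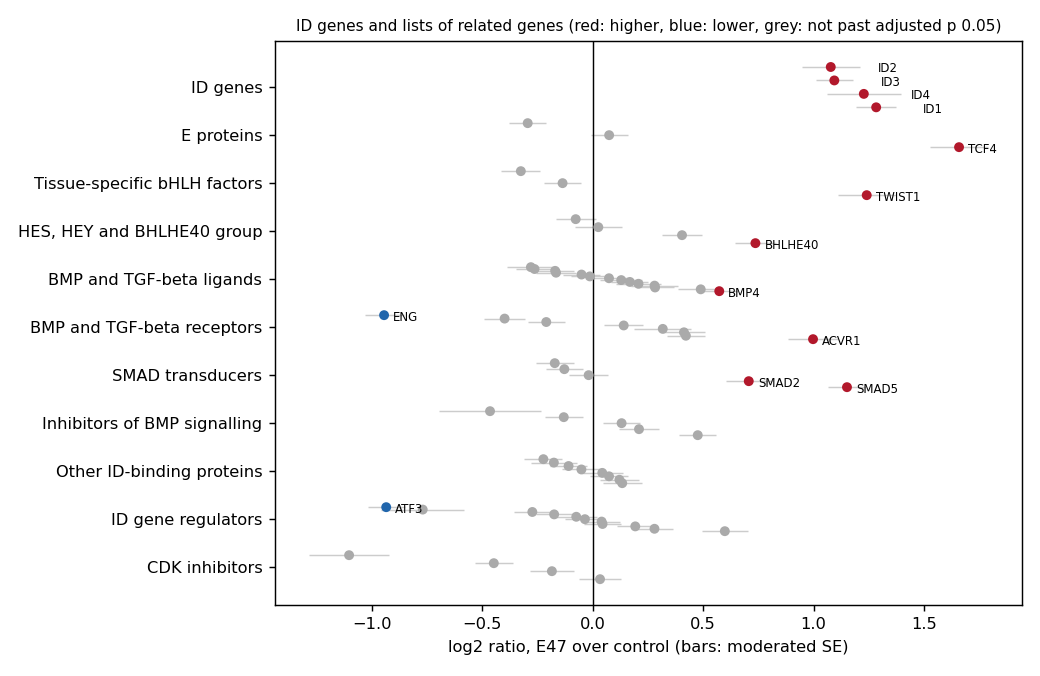
Mean log2 ratio over 2 extractions, with moderated SE, of the ID genes and of 10 lists of related genes; red genes were called higher, blue genes lower and grey genes did not pass. The 4 ID genes lie between 1.08 and 1.28, and most related genes lie near 0, with TWIST1 and SMAD5 in the range of the ID genes, TCF4 above it and ACVR1, at 1.00, just below it.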

How the data were processed

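The authors deposited 1 table of log2 ratios, a column per array, with both signs and column medians of −0.0051, 0.0027 and 7.67e-04. How they corrected background and normalized, and which log base and direction they used, is not stated in the labels. Base 10 cannot hold, because the highest value, 7.80, is above 4.82, the log10 range of a 16-bit scanner. Intensities were not used here, so no filter on dim spots was possible and signal over background is unknown. The number of arrays limits the precision.

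Symbols are those of the platform annotation. Spots with 1 symbol and values on all 3 arrays were averaged per gene, other complete spots were kept singly, and the dye swap was averaged. In limma 3.58.1 (R 4.3.3), lmFit and eBayes tested the log2 ratio of each of 14008 features against 0, with Benjamini-Hochberg adjustment over all of them, a threshold of 0.05 and 1 residual degree of freedom. The code was tested on simulated data. Control RNA was taken as a common reference, although the design text does not name the same control for each array.

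The members, lists and tests were chosen with earlier results of these data known. Genes named are the ID genes, for each the 3 genes nearest over the arrays, list members that passed, and otherwise the 2 largest of a list. Markers form a list of their own; TCF3, TCF12, SMAD1, CDKN1A and CDKN2B were added after their values were seen. Alternatives changed the spots, the use of the arrays, dye, scaling, summary, spread estimate, genes tested and threshold. Figures were drawn with matplotlib 3.10.9.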

Additional observations from a re-analysis of the deposited data

How the results depend on the processing

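The ID genes were above 0 under all 11 alternatives that gave a test. ID1 kept its call under 10 of them, with a log2 ratio of 0.11 when spots missing on an array were kept. Without the Cy5 array of extraction 2 the log2 ratios of ID2, ID3 and ID4 were 1.07, 1.08 and 1.21, past the threshold no longer, and that of ID4 with missing spots kept was 1.23. The range over alternatives was 0.11 to 1.33 for ID1, 0.93 to 1.14 for ID2, 1.04 to 1.19 for ID3 and 1.08 to 1.25 for ID4. The count of ID genes called fell from 4 to 2 with missing spots kept, to 1 without the Cy5 array of extraction 2 and to 0 at an adjusted p under 0.01 in limma, where 1963 named genes had an unadjusted p under 0.05. The count of named genes, 506, became 919 from the Cy5 arrays alone, 109 without the Cy5 array of extraction 2, 1008 with 3 arrays taken as independent, 1175 when features with no or several symbols were left out, and 0 at an adjusted p under 0.01. With single extractions, a value with no test, the ranges were 1.21 to 1.35 for ID1, 0.88 to 1.27 for ID2, 1.06 to 1.13 for ID3 and 0.95 to 1.51 for ID4. A random block for the extraction could not be fitted with 3 arrays. The cause of these changes was not tested.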

Other observations

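Values as low as those of the ID1 clone BE275812 in extraction 1 were rare and often unmatched. Of 25537 spots with a value in extraction 1, 86 were below −3. Of these 86 spots, 42 (48.8%) lacked a value on at least 1 array of extraction 2, against 8.86% of all spots with a value in extraction 1. Where the Cy3 array of extraction 2 had a value, 38 of 79 of these low spots were above 0 there, as the ID1 spot was at 0.92. Of all spots with a value in extraction 1 and on that array, 12244 of 24297 were above 0 there, a similar share.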
